A study of Rattus norvegicus with 8 samples.

Results

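The nuclear genes for respiratory complexes I to III and for ATP synthase were followed across the 2 layers of rat extraocular muscle. In the inner mitochondrial membrane, complex I takes electrons from NADH, complex II takes them from succinate, and complex III passes them through cytochrome c to cytochrome oxidase. Complexes I and III pump protons, complex II does not, and ATP synthase uses the proton gradient to make ATP. The members were all genes whose symbol starts with Ndufa, Ndufb, Ndufc, Ndufs, Ndufv, Uqcr or Atp5, or is Sdha, Sdhb, Sdhc, Sdhd, Cyc1 or Cycs, read at the brightest probe set of each gene by its mean over the 8 arrays. The rule found 69 genes, from 74 probe sets, of 10411 genes with a single symbol on the array. They were 39 genes of complex I, 4 of complex II, 8 of complex III, 16 of ATP synthase, and the pair Ndufa4 and Ndufa4l2. Ndufa4 was named for complex I and is now counted with cytochrome oxidase. Cycs had 0 probe sets with that symbol alone, and 7 further probe sets that list a symbol of the rule beside others were left out.

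Tissue of the orbital layer, next to the orbital bone, and of the global layer, next to the eye, was cut by laser from extraocular muscle of adult rats. The labels give no strain, sex or treatment. There were 4 samples per layer, called captures here and numbered in accession order, each on 1 array. Orbital captures 3 and 4 carry nearly the same title, and the labels do not say whether they share a capture or an extract, so the orbital n may be 3 and not 4. With the pair averaged as 1 sample, 0 members differed and the members' median difference was 0.03. The labels do not tie captures to animals, so p-values measure the spread between captures and are too small if captures share an animal.

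Levels are linear array intensities as deposited, and differences are the orbital minus the global mean of log2(intensity + 1). Adjusted p-values are from limma, fitted over 9520 probe sets with Benjamini-Hochberg adjustment and a threshold of 0.05. Each capture is bulk tissue, in which fewer cells of a type and less RNA per cell cannot be told apart. The 9 measured muscle fibre markers (of 10) summed to between 51912 and 88941 in the 8 captures, with overlapping layers. Single genes of this list differed in both directions, with 1 passing as higher and 1 as lower in the orbital layer. Mb differed by 0.82 (adjusted p = 0.0029), with no overlap, and Atp2a1 by -0.82 (adjusted p = 0.0306), with overlap. The 4 measured photoreceptor markers summed to 260 to 954 in the global and 1267 to 2401 in the orbital captures. Of these 4, 0 lay under the bacterial control probe sets in all captures, but Rcvrn did in 7 captures. Only Guca1a did not overlap between the layers, at 208 to 450 in the global and 1028 to 1664 in the orbital captures. Sag, Gnat1 and Rcvrn each overlapped. Of the other 6 marker lists, the sum for smooth muscle and pericyte (6 genes) did not overlap either. It was 785 to 912 in the global and 437 to 779 in the orbital captures, and the sums of the other lists overlapped. Within it Myh11 (349 to 511 against 93.6 to 216) and Tagln (55.7 to 88.3 against 28.5 to 49.8) did not overlap. Acta2, Cnn1, Pdgfrb and Rgs5 did. Among the lists with overlapping sums, those for endothelium, for fibroblast and matrix, and for Schwann cell and nerve each held 1 gene that passed. All were higher in the orbital layer: Eng (1.29, adjusted p = 0.0193), Fmod (0.86, adjusted p = 0.0472) and Nefm (1.23, adjusted p = 0.0291). Eng and Vwf of the endothelium list did not overlap between the layers. In the adipocyte and blood lists 0 passed. The part of these markers in the results was not tested. Orbital capture 3 had the highest ratio between the Gapdh probe sets at the 3′ and the 5′ end of the transcript (12.9, against 5.35 to 8.64 in the other captures). The same ratio for beta actin did not set it apart (8.32, against 7.69 to 10.7 in the other captures).

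Nuclear respiratory factor 1 (NRF-1) and the ETS-family factor GABP are known to bind promoters of many respiratory chain genes, so the members' promoters were read for their motifs. RefSeq (GRCr8) gave a promoter for 64 of the 69 members, and the 250 bases before the start were searched on both strands. The NRF-1 motif GCATGCG, which can match both strands of its palindromic site, stood in 11 of 64 members (17.2%), against 3.14% of all 27457 promoters and 5.04% of the 8611 promoters of genes on the array. The ETS motif CCGGAAG stood in 18 members (28.1%), against 7.74% of all promoters and 13.3% of those on the array. The core AAGGTCA, bound by estrogen-related receptors, stood in 6 members (9.38%), against 3.77% of all promoters and 2.73% of those on the array. The YY1 motif AAGATGG stood in 3 members (4.69%), against 4.63% and 4.18%. Median GC content was 56% in the members and 52% in all promoters. To show the sequences behind these counts, 1 promoter per complex is given, chosen by the most kinds of these motifs, then the most matches, then the alphabet, with motif matches in capitals. Uqcrq had as many kinds as Uqcrc2 but fewer matches, and Atp5mg and Atp5pf tied with Atp5me on both.
Ndufa6 (chr7:115750318-115750567, minus strand, complex I): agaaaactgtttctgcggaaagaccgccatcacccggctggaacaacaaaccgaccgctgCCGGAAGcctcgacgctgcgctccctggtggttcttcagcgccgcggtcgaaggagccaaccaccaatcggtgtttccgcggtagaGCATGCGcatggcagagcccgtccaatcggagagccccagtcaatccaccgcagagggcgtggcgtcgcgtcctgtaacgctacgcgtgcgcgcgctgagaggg
Sdhb (chr5:158547684-158547933, plus strand, complex II): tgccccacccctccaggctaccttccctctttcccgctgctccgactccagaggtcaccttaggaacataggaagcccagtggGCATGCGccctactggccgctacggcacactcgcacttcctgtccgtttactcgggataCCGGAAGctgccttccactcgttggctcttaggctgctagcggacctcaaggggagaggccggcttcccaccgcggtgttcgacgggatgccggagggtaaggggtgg
Uqcrc2 (chr1:184598990-184599239, plus strand, complex III): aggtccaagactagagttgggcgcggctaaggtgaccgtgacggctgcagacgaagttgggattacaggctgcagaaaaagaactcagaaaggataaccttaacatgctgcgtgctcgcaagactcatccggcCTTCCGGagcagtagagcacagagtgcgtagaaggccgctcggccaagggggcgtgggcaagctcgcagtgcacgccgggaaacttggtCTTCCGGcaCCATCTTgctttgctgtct
Atp5me (chr14:1464610-1464859, plus strand, ATP synthase): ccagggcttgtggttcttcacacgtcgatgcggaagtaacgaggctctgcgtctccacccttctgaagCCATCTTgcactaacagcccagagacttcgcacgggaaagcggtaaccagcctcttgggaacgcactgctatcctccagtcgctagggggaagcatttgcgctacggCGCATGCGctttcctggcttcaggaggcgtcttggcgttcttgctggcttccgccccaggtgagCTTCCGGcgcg

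In the Ndufa6 and Sdhb promoters the capitals mark 1 NRF-1 and 1 ETS match each, in opposite order along the promoter. In Uqcrc2 they mark 2 ETS matches and 1 YY1 match, and in Atp5me 1 YY1 match, an NRF-1 palindrome and 1 ETS match next to the start. The 24 tested members with an NRF-1 or ETS match had a median layer difference of 0.02 and the 39 without either -0.01, with ranges of -0.25 to 0.36 and -0.47 to 0.37. The 4 genes shown differed by 0.13 (Ndufa6), -0.08 (Sdhb), -0.01 (Uqcrc2) and 0.01 (Atp5me), and each of these had a 95% interval across 0.

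None (0) of the 68 members tested differed between the layers in limma at the threshold, where 7.68% of the 7163 genes tested did (4.09% higher and 3.59% lower in the orbital layer, and 7.41% of all probe sets). Ndufa4l2 was the 1 member below the filter on dim probe sets. At an unadjusted p under 0.05 there were 3 members, all higher in the orbital layer (Ndufb7, Sdhc and Atp5f1d), or 4.41% of 68 against 21.9% of all genes. The layers did not overlap for 1 member, Atp5f1e, which was lower in all 4 orbital captures, or 1.47% of 68 against 14.3% of all genes (7.48% with the orbital and 6.80% with the global layer above). Differences were positive in 36 members and negative in 32, with a median of 0.02, the same to 2 decimals as that of all genes tested. No set test was run on these counts.

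The intervals show how far these genes could differ if the captures are independent. Like the p-values, they are too small if captures share an animal or an extract. The 95% interval of the difference lay within a 2-fold change in either direction for all 68 members tested, and for 85.5% of all genes tested. It lay within a 1.5-fold change for 56 of 68 members, against 43.2% of all genes. The members were not matched to all genes in intensity, and its part in this contrast was not tested. The median member had a standard error (SE) of 0.15 on the log2 scale and a distance of 0.12 from 0, whereas over all genes these were 0.18 and 0.21. Intervals are per gene and not joint over the 68 genes. The widest was that of Ndufb8 (-0.73 to 0.87), whose intensity was 54.6 ± 27.4 (SD, n = 4) in the global and 54.7 ± 19.8 in the orbital layer, close to the filter at 39.4. Ndufa4l2, just under that filter, had 37.3 ± 6.83 and 39.8 ± 16.1.

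**Figure D1:**
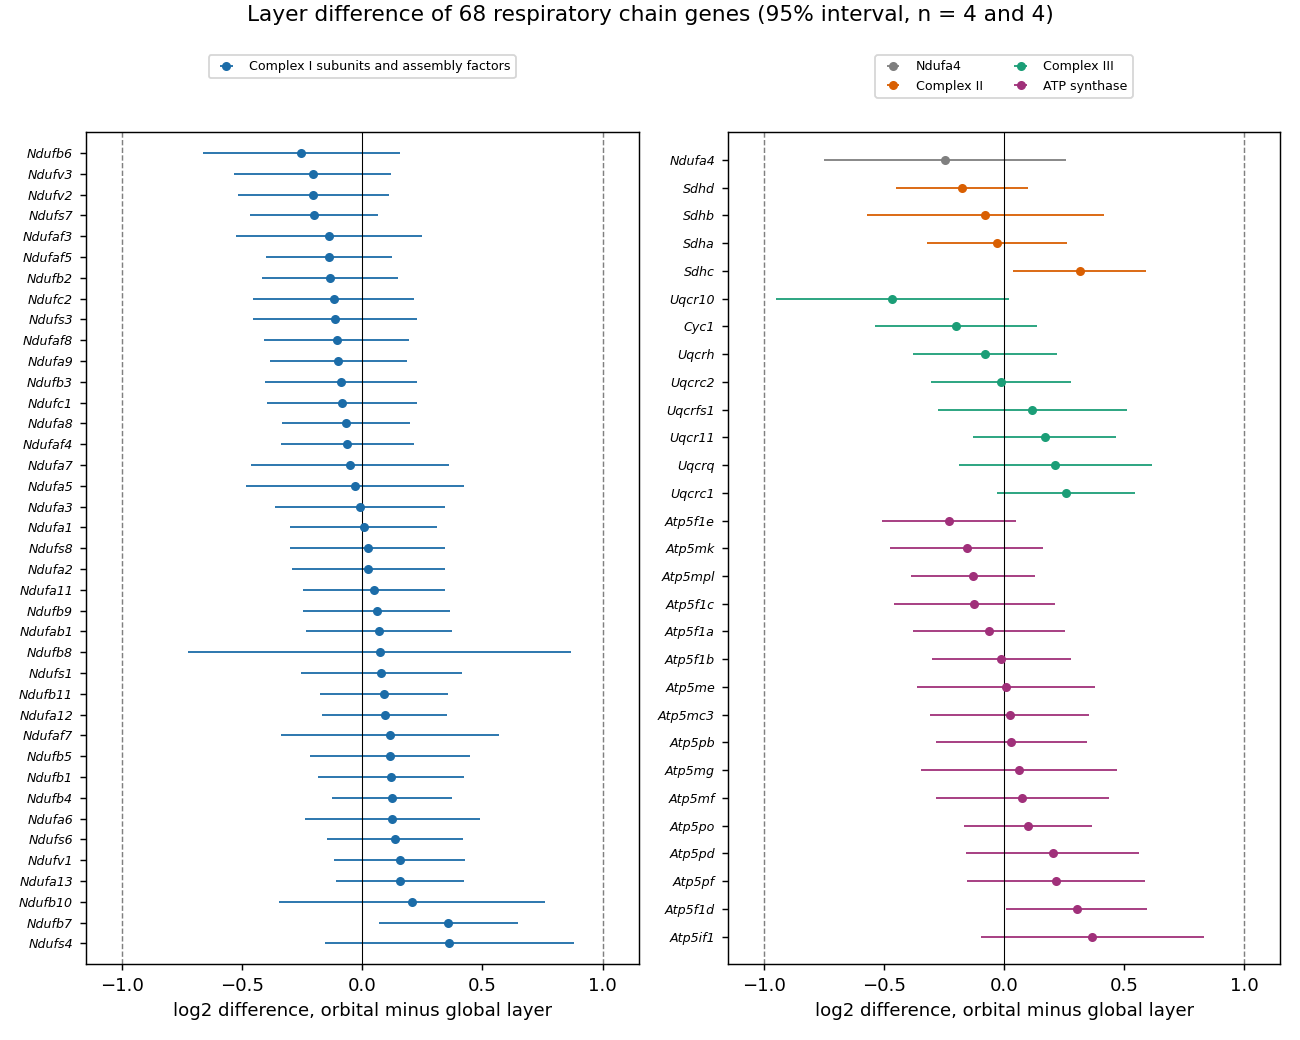
Difference between layers (orbital minus global, log2, horizontal axis) of the 68 tested members, sorted within each complex, with points for the fitted difference and bars for the 95% interval (n = 4 captures per layer). The bars stay between the dashed lines at a 2-fold change, and those of Ndufb7, Sdhc and Atp5f1d do not cross 0.

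The flavin and iron-sulphur clusters of complex I are carried by some of its core subunits, and accessory subunits surround and stabilise the core. The 6 core subunits encoded in the nucleus and measured here lay between -0.20 and 0.16, with a median of -0.05, and each interval fell within a 1.5-fold change. Ndufs7, which holds the last iron-sulphur cluster before ubiquinone, read 2099.9, 1721, 2032 and 2087 in global captures 1 to 4 and 1733, 1844, 1502 and 1834 in orbital captures 1 to 4. Its orbital values were the lower ones on average but the layers overlapped (-0.20 ± 0.12 (SE), adjusted p = 0.382). Ndufv1, the subunit that binds NADH and the flavin, differed by 0.16 ± 0.13, and Ndufs1, with several iron-sulphur clusters, by 0.08 ± 0.15.

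The 28 accessory subunits of complex I spread from -0.25 (Ndufb6) to 0.36 (Ndufs4), 17 above and 11 below 0. Ndufb7, a small subunit at the outer face of the membrane arm, had the smallest p of all members. It read 1071, 1147, 1048 and 1012 in the global captures and 1367, 1318, 1144 and 1708 in the orbital captures. All orbital values but that of capture 3 lay above the global ones (0.36 ± 0.13, adjusted p = 0.135). Ndufs4, an accessory subunit whose loss causes mitochondrial disease, read 677, 601, 553 and 626 against 844, 708, 474 and 1362. Its orbital captures 3 and 4 were the lowest and the highest of the 8 (0.36 ± 0.24, adjusted p = 0.423). Ndufb6, of the membrane arm, read 1413, 1012, 1109 and 899 against 1112, 871, 645 and 1131 (-0.25 ± 0.19, adjusted p = 0.488), again with orbital capture 3 lowest.

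Ndufb3, another membrane arm subunit, held 9812 ± 1002 (SD, n = 4) in the global and 9258 ± 1298 in the orbital layer (-0.09 ± 0.15 (SE), adjusted p = 0.782). The acyl carrier protein Ndufab1, which also serves mitochondrial fatty acid synthesis, differed by 0.07 ± 0.14. Of the 5 assembly factors of complex I measured under the rule (Ndufaf3, Ndufaf4, Ndufaf5, Ndufaf7 and Ndufaf8), 4 were below 0 and 1 above, between -0.14 and 0.12, and 0 passed. Ndufa4 differed by -0.25 ± 0.23 (adjusted p = 0.598).

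Complex II is succinate dehydrogenase, the enzyme shared by the citric acid cycle and the respiratory chain and the one stained in muscle sections to show oxidative fibres. Its 4 subunits differed by -0.18 to 0.31, and 0 passed. Sdha, the flavoprotein that oxidises succinate, read 2385, 2363, 2076 and 2067 in the global captures and 2631, 1982, 1874 and 2272 in the orbital captures, so the orbital range enclosed the global one. Its difference was -0.03 ± 0.13 (SE), with a 95% interval of -0.32 to 0.26 (adjusted p = 0.921). Sdhb, the iron-sulphur subunit, read 1368, 1521, 1238 and 2049 against 1903, 1189, 955 and 1968. Both layers thus held high and low captures (-0.08 ± 0.23, adjusted p = 0.885).

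The membrane anchors of complex II, which hold its haem and ubiquinone site, leaned in opposite directions. Sdhc read 1167, 1444, 1092 and 1321 in the global and 1638, 1415, 1458 and 1720.3 in the orbital captures. A single orbital value, that of capture 2, fell below the highest global one (0.31 ± 0.13 (SE), interval 0.04 to 0.59, adjusted p = 0.175). Sdhd read 3149, 2467, 2656 and 2809 against 2267, 2414, 2312 and 2812 (-0.18 ± 0.13, adjusted p = 0.470). A second Sdhd probe set differed by -0.04 ± 0.11 (adjusted p = 0.892). The difference of Sdhc stayed between 0.23 and 0.40 over the 24 alternatives and passed under 0 of them.

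Complex III hands electrons from ubiquinol to cytochrome c. Its 8 measured genes ran from -0.47 (Uqcr10) to 0.26 (Uqcrc1), 4 above and 4 below 0, and 0 passed. Uqcrc1, one of the core proteins that face the matrix, read 2581, 1919, 2505 and 2553 in the global and 2916, 2541, 2944 and 2963 in the orbital captures. All orbital values but that of capture 2 lay above the global ones (0.26 ± 0.13 (SE), adjusted p = 0.288). The other core protein, Uqcrc2, differed by -0.01 ± 0.14 (adjusted p = 0.971).

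The subunits of complex III that carry electrons did not pass either. Cyc1, cytochrome c1, read 2161, 2094, 2453 and 2203 in the global and 2189.5, 2133, 1376 and 2185 in the orbital captures. Orbital capture 3 stood below the other 7 captures, which lay close together (-0.20 ± 0.16 (SE), adjusted p = 0.510). Uqcrfs1, the Rieske iron-sulphur protein, differed by 0.12 ± 0.18. Uqcr10, a small subunit, had the difference farthest from 0 of the 68 members, with an interval of -0.95 to 0.02. It read 3021, 2308, 2429 and 1918 against 1389, 2532, 1177 and 2159. Orbital captures 1 and 3 were low while orbital captures 2 and 4 lay among the global values (-0.47 ± 0.22, adjusted p = 0.253). Uqcrh, the hinge protein, held 5596 ± 629 (SD, n = 4) and 5295 ± 647 (-0.08 ± 0.14 (SE), adjusted p = 0.790).

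ATP synthase turns a ring of membrane subunits against a catalytic head, and a peripheral stalk keeps the head from turning. Its 16 genes lay between -0.23 and 0.37, 10 above and 6 below 0, and 0 passed. The catalytic beta subunit Atp5f1b read 9602, 10325, 10573 and 9956 in the global captures and 10831, 8535, 10543 and 10387 in the orbital captures. All captures but orbital 2 lay close together (-0.01 ± 0.13 (SE), interval -0.30 to 0.28, adjusted p = 0.975). The alpha subunit Atp5f1a differed by -0.06 ± 0.15 and Atp5mc3, 1 of the genes for the ring subunit c, by 0.02 ± 0.15 (adjusted p = 0.950). Atp5mc3 held 8429.6 ± 1038 (SD, n = 4) in the global and 8580.5 ± 1212 in the orbital layer.

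Of the central stalk genes, delta leaned up and epsilon down. Atp5f1d (delta) read 684, 597, 597 and 552 in the global and 911, 778, 650.3 and 674 in the orbital captures. Orbital captures 3 and 4 were just under the highest global value (0.30 ± 0.14 (SE), interval 0.01 to 0.59, adjusted p = 0.217). Atp5f1e (epsilon) read 7203, 7376, 7828 and 8721 against 6819, 6800.2, 6001 and 6919. All 4 orbital values were below all 4 global ones (-0.23 ± 0.13, adjusted p = 0.335). The difference of Atp5f1e was -0.11 with quantile and -0.14 with cyclic loess normalization, and between -0.36 and -0.10 over the 24 alternatives. The gamma subunit Atp5f1c differed by -0.12 ± 0.16.

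The 4 peripheral stalk genes (Atp5pb, Atp5pd, Atp5pf and Atp5po) lay between 0.03 and 0.21, and the 5 small membrane subunits (Atp5me, Atp5mf, Atp5mg, Atp5mk and Atp5mpl) between -0.16 and 0.08. Atp5if1, the inhibitor that binds the catalytic head when the membrane loses its charge, read 399, 517, 265 and 253 in the global and 550.2, 462, 365 and 416 in the orbital captures. Captures 1 and 2 of either layer, whose titles share a prefix, were higher than captures 3 and 4 (0.37 ± 0.22 (SE), adjusted p = 0.354). Of its other 2 probe sets, 1 was tested and differed by 0.46 ± 0.23 (adjusted p = 0.278), and the other was too dim. The dimmer probe sets of Atp5me and Ndufv3 were not tested.

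**Figure D2:**
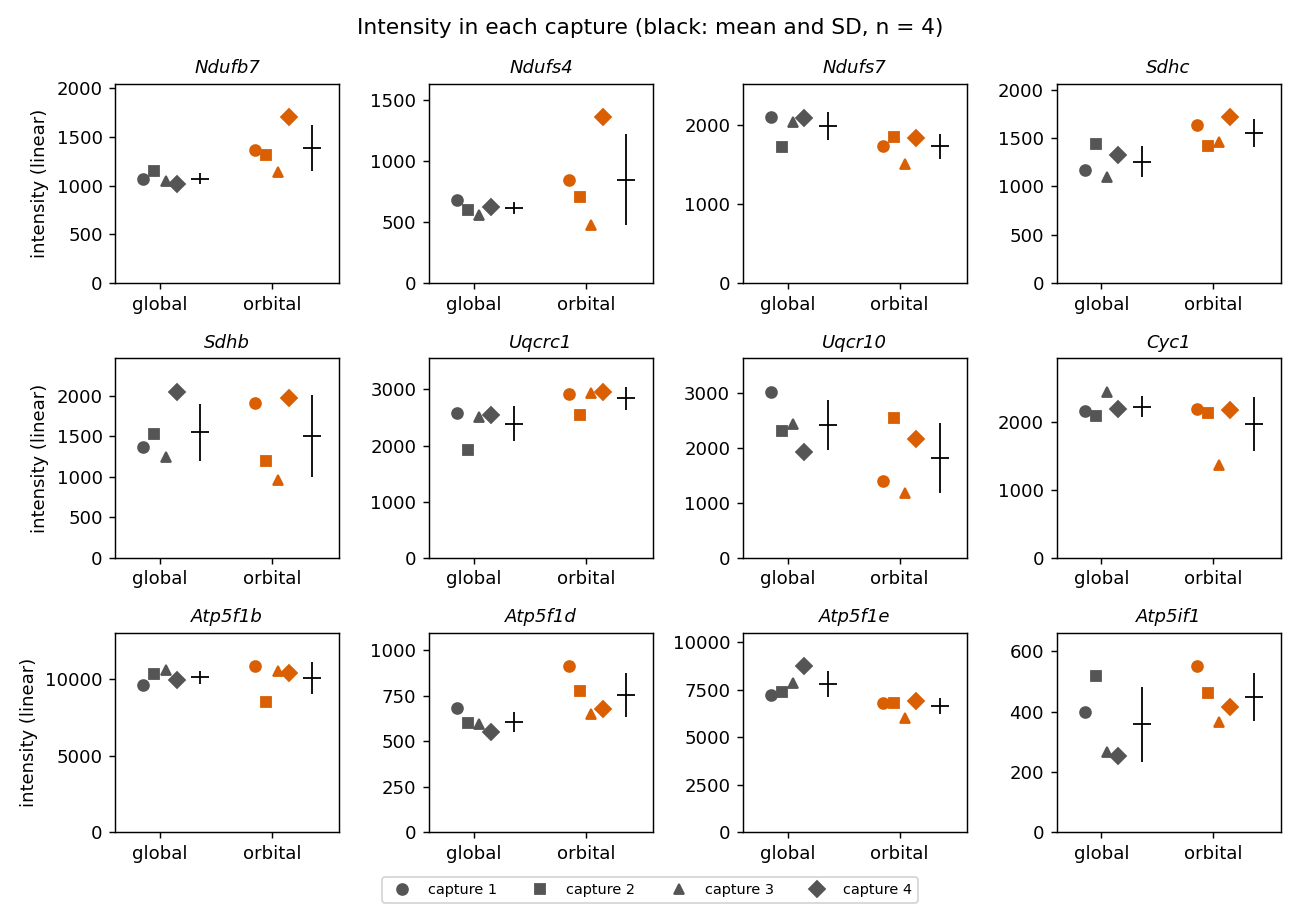
Intensity (linear, vertical axis from 0) of 12 members in each capture, with marker shape for the capture number, grey for the global and orange for the orbital layer, and mean and SD in black (n = 4). The layers overlap in every panel but that of Atp5f1e, and orbital capture 3 (triangle) is the lowest orbital value in 9 of the 12.

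The members varied together between captures of the orbital layer. Each gene was set against its own mean over the 8 captures, on the log2 scale. The median of the 68 members was then -0.21 in orbital capture 3 and 0.17 in orbital capture 4, against 0.14 and -0.02 in orbital captures 1 and 2. In global captures 1 to 4 it was 0.03, 0.04, -0.06 and -0.04. Over all genes tested the 8 medians lay between -0.01 and 0.04, and that of orbital capture 3 was 0.04. Orbital capture 3 was the lowest of the 8 for 32 of 68 members (47.1%), where it was lowest for 10.4% of all genes. It lay below the gene's own mean for 62 of 68 (91.2%, against 44.3% of all genes). A like pattern stood outside the members: the 15 cytochrome oxidase genes had medians of -0.23 in orbital capture 3 and 0.36 in orbital capture 4. The other related lists, described below, followed it less closely. The 23 assembly factors, 5 of them members, had -0.20 and 0.03. Genes of electron entry and coenzyme Q had -0.01 and 0.19, and the carriers, with Atp5if1 among them, -0.10 and 0.13. Regulators of mitochondrial biogenesis had -0.10 and 0.08, and genes of cristae and mitochondrial dynamics -0.13 and 0.03.

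Orbital captures 3 and 4, which carry nearly the same title, thus lay at opposite ends. Capture 4 was above capture 3 for 64 of 68 members (94.1%), where it was so for 45.4% of all genes, with a median gap of 0.36. By complex this held for 36 of 39 genes of complex I, 4 of 4 of complex II, 8 of 8 of complex III and 15 of 16 of ATP synthase. The median gap was 0.41 in complex I, 0.28 in complex II, 0.41 in complex III and 0.32 in ATP synthase. For the members the median SD between captures was 0.24 in orbital and 0.14 in global captures, and for all genes tested it was 0.23 and 0.24. Without orbital capture 3 the median layer difference of the members was 0.10, and without orbital capture 4 it was -0.04, with 0 members passing either way. When orbital captures 3 and 4 were both left out the median was 0.05, and 0 passed. The Gapdh 3′ to 5′ ratio was 12.9 in orbital capture 3 and 8.64 in orbital capture 4, and that of beta actin 8.32 and 8.37. The muscle fibre markers summed to 66259.9 and 78927. Their part in the gap was not tested.

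**Figure D3:**
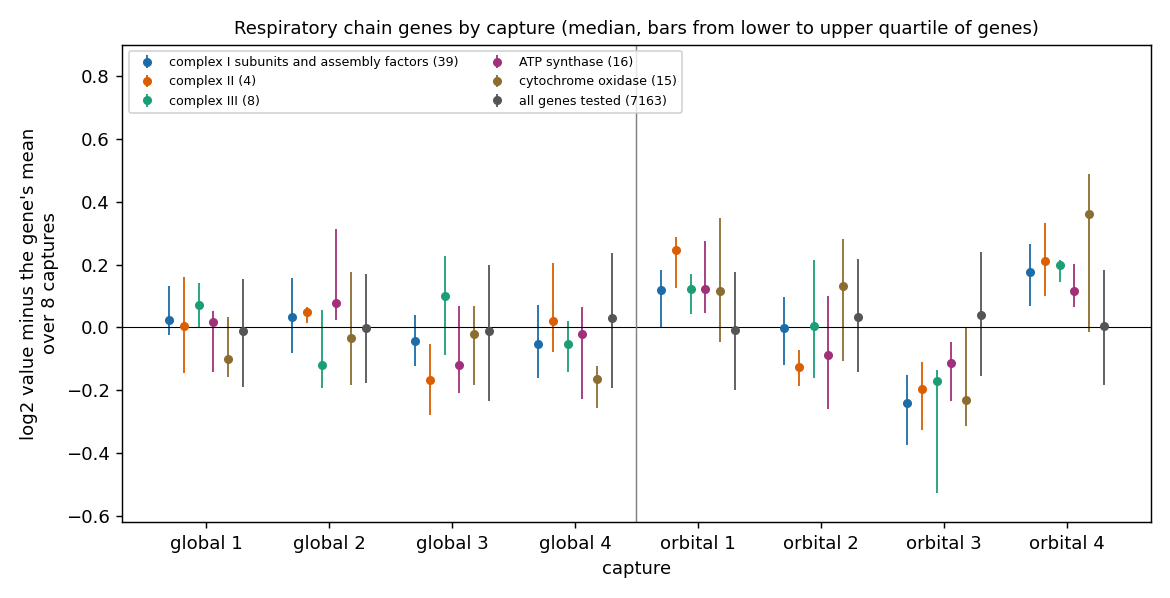
Median deviation of each gene from its own mean over the 8 captures (log2, vertical axis) for 5 gene groups and all genes tested, by capture, with bars from the lower to the upper quartile of genes. The complexes lie below 0 in orbital capture 3 and above 0 in orbital capture 4, while the median of all genes stays near 0 in both.

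The titles carry a prefix, R2 for captures 1 and 2 and R3 for captures 3 and 4 of each layer, whose meaning the labels do not give. The layer difference was compared between the prefixes by an interaction term in limma, with 2 captures in each cell. The interaction passed for 0 of 68 members and 0 of 7163 genes (smallest adjusted p = 0.9999), and had an unadjusted p under 0.05 for 3 of 68 members and 215 of 7163 genes. The 3 were Ndufaf7, Ndufa7 and Atp5pf. The median layer difference of the members was -0.03 within R2 and 0.03 within R3.

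Of 84 genes tested in 6 lists of genes that work beside these complexes (6 of them members), 6 differed between the layers (7.14%), a share near the 7.68% of all genes tested. The cytochrome oxidase list held the genes whose symbol starts with Cox4i, Cox5, Cox6, Cox7 or Cox8. It thus included Cox6c-ps1 and Cox7a2l and left out Ndufa4. Of 15 genes tested in it, 2 were higher in the orbital layer and 0 lower, with a median of 0.23, and the pair was Cox6a1 and Cox8a. Cox6a1 is the widely expressed isoform of a subunit with a separate muscle form. It read 354, 284, 278 and 313 in the global and 517, 483, 403 and 507 in the orbital captures, with no overlap (0.64 ± 0.13 (SE), adjusted p = 0.0105). Cox8a held 1912 ± 125 (SD, n = 4) and 2637 ± 367 (0.46 ± 0.13 (SE), adjusted p = 0.0490), a call that 7 of the 8 fits with 1 capture removed did not keep (adjusted p of 0.0665 to 0.133), all but the one without orbital capture 3.

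Among the genes of electron entry and coenzyme Q, the largest layer difference was that of Gpd2. Of 16 genes of electron entry and coenzyme Q, 1 was higher and 1 lower, with a median of 0.02. Gpd2, the mitochondrial glycerol phosphate dehydrogenase that passes electrons straight to ubiquinone, read 392, 280.1, 502 and 321 in the global and 56.2, 80.1, 77.6 and 125 in the orbital captures. Every orbital value lay far below every global one (-2.15 ± 0.24 (SE), adjusted p = 0.000141). With the mean over the probe sets of each gene, its difference was -1.58 (adjusted p = 0.00171 in limma). Coq10a, a coenzyme Q binding protein, held 767 ± 99.1 (SD, n = 4) and 1051 ± 95.6 (0.46 ± 0.13 (SE), adjusted p = 0.0470). That call too was kept in 1 of those 8 fits, the one without global capture 2 (0.0644 to 0.124 in the others).

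Of 11 carriers and regulators of ADP, phosphate and proton movement (Atp5if1 among them), 1 was higher and 1 lower, with a median of 0.01. Slc25a5, an ADP/ATP carrier of the inner membrane, read 714, 658, 557 and 818 in the global and 1279, 1091, 1236 and 1195 in the orbital captures (0.82 ± 0.13 (SE), adjusted p = 0.00245). Slc25a4, the carrier of heart and muscle, differed by 0.01. Vdac1, the main pore of the outer membrane, held 1723 ± 331 (SD, n = 4) in the global and 707 ± 197 in the orbital layer (-1.31 ± 0.20 (SE), adjusted p = 0.00138), with no overlap. In 23 assembly factors of all complexes (5 of them members), 8 regulators of mitochondrial biogenesis and 11 genes of cristae and mitochondrial dynamics, 0 passed, with medians of -0.06, 0.03 and -0.15. At an unadjusted p under 0.05 there were 4, 2 and 1 of them (17.4%, 25% and 9.09%, against 21.9% of all genes). The 4 assembly factors and the 1 gene of cristae and dynamics were lower in the orbital layer. Of the 2 regulators, 1 was higher and 1 lower.

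**Figure D4:**
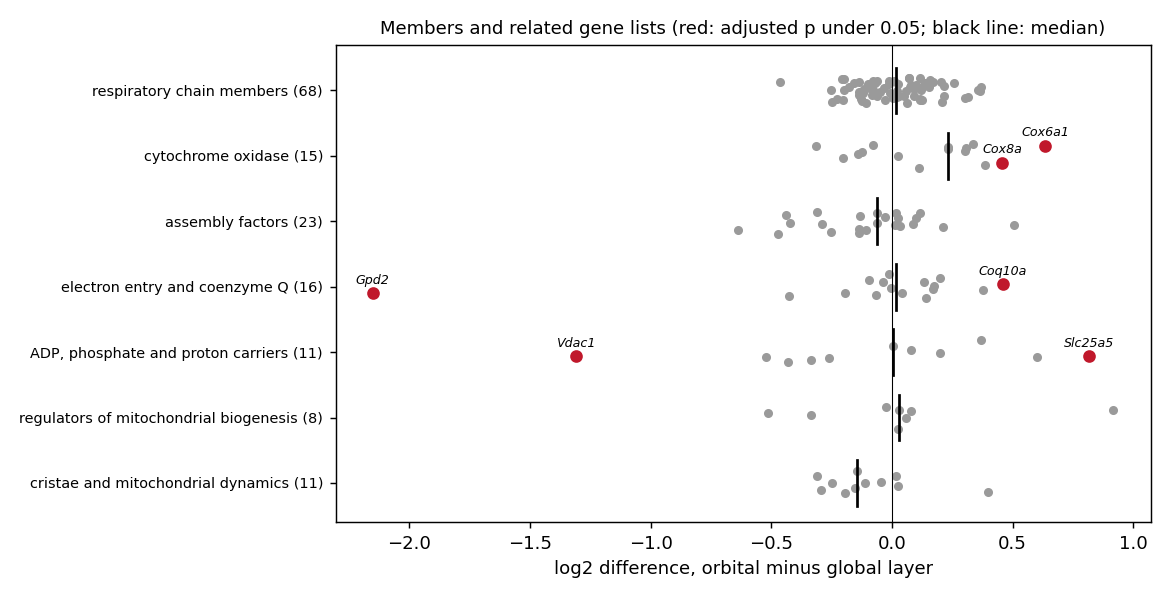
Layer difference (orbital minus global, log2, horizontal axis) of each tested gene in the 68 members and 6 related lists, with red points for genes at an adjusted p under 0.05 and a black line at the median of each list. Vertical scatter within a list has no meaning. All members lie between -0.47 and 0.37 and none (0) is red, and the 6 named genes in the other lists are.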

How the data were processed

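Per the labels, RNA of the laser-cut samples went through T7 amplification, and each sample has its own Affymetrix RAE230A array (1 colour). The deposited table holds 1 linear intensity per probe set and array, and the software that summarised probes is not given in the sources used here. Array means trimmed by 2% differed by at most 0.00389%, so the arrays were scaled before they were deposited, and the intensity values were kept as they stood. The 57 control probe sets were left out, and 9520 of 15866 others, with a mean log2 value at or above the 40th percentile, were tested with lmFit and eBayes with trend (limma 3.58.1, R 4.3.3) on log2(intensity + 1), layer as the only term. Differences of dim probe sets depend on the pseudocount. Symbols are from the platform annotation, where all 69 members were found by gene ID in a current table and 0 changed. The number of arrays limits the precision.

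The members and gene lists were chosen with earlier results of these data known. Named were members that passed or did not overlap, in each complex the 3 smallest p, the brightest and both extremes, and Atp5mc3, Cyc1, the Sdh genes and untested members, which gives 19. Other members were added after their values were seen, to describe each role. Of the related lists, genes that passed were named, and Slc25a4 was added after its value was seen. The fit was tested on simulated data. Alternatives were other normalizations, pseudocounts, filters, variance models, blocks by title prefix, array weights, merged or left-out captures and the mean over probe sets. A fit with orbital captures 1 and 2 alone was added after seeing the data.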

Additional observations from a re-analysis of the deposited data

Results flagged for a closer look

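Among 19 members named by rule and 5 gene groups, 48 sets of 4 captures were examined for a value far from the others of its layer, and chance marks about 1 in 20 such sets. There were 4. Uqcrc1 had 2541 in orbital capture 2, where the other orbital captures lay between 2916 and 2963, and 1918.5 in global capture 2, where the others lay between 2505 and 2581. Cyc1 had 1375.5 in orbital capture 3, against 2133 to 2189.5 in the others. Atp5f1e had 6000.8 in orbital capture 3, against 6800.2 to 6919 in the others.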

How the results depend on the processing

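Under all 24 alternatives, 0 members passed in either direction, and the number of members with a 95% interval within a 2-fold change was 61 to 69 (69 without the filter, where Ndufa4l2 was tested too, and 61 with prefix R3 alone). The median difference over all members was between -0.04 and 0.10. Of the medians per complex, complex I was between -0.04 and 0.11, complex II between -0.14 and 0.08, complex III between -0.03 and 0.11 and ATP synthase between -0.07 and 0.09, each moving by less than 1 SD between captures. Over all probe sets the count of 705 was 468 to 726 on leaving out 1 capture (468 without global capture 3), 106 and 166 with prefix R2 or R3 alone and 363 with orbital captures 1 and 2 alone. With the prefix as a replicate block it was 745. Residuals of captures of different layers correlated with r of -0.01 to 0.11 within a prefix and -0.13 to 0.04 across prefixes. Centring the residuals within each layer holds the mean of these r near 0, so they cannot settle whether the prefix pairs captures. The main fit left the prefix out. Counts in the related lists rest on few genes. Cytochrome oxidase had 1 gene without the filter, without trend, with the prefix as a random block and with orbital captures 1 and 2 alone, 0 with either prefix alone, and 1 to 2 on leaving out a capture. Electron entry and coenzyme Q had 1 in the same settings, with either prefix alone and with orbital captures 3 and 4 averaged, and 1 to 2 on leaving out a capture. The carriers had 1 with either prefix alone and 2 to 3 on leaving out a capture. Assembly factors had 1 with cyclic loess, the filter at the 60th percentile, the replicate block and array weights. Regulators of biogenesis had 1 with the mean over probe sets and 0 to 1 on leaving out a capture (1 without orbital capture 3). The cause of these changes was not tested.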
